A study of Mus musculus with 11 samples.

Results

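The 10 genes described here encode AP-1 subunits and the small Maf proteins that are related to them: Fos, Fosb, Fosl2, Jun, Junb, Jund, Atf3, Maff, Mafg and Mafk. They were found in the table of array signals by gene symbol, where 15 of 45281 probes carry one of these symbols, and they are 10 of the 19057 genes with a probe of their own. AP-1 is a dimer of basic leucine zipper proteins, usually a Fos family member with a Jun family member, that binds DNA and controls transcription. Several of its subunits are immediate early genes, transcribed within minutes of a growth factor, cytokine or stress signal without new protein synthesis. Small Mafs have a leucine zipper but no activation domain of their own, and act through dimers with one another or with CNC and Bach proteins, such as NRF2 and BACH1, at antioxidant and Maf response elements.

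Total RNA of the quadriceps, a thigh muscle, was hybridised to Illumina MouseWG-6 v2.0 BeadChips, 1 array for each of 11 female CD2F1 mice aged 5 to 6 weeks per the labels. The mice with moderate cachexia (n = 3) had lost 10% and those with severe cachexia (n = 4) had lost 15% of body weight after cells of C26, a transplantable line of mouse colon adenocarcinoma, were implanted under the skin. Control mice (n = 4) carried no tumor and, per the authors, were injected with saline (PBS). The labels and the methods differ on the vendor of the mice and the site of implantation, stage and time after implantation cannot be told apart, and in whole muscle a change in the number of cells of a type and a change in RNA per cell cannot be told apart. Mice carry the numbers in the column names of the signal table, and these could not be linked to the replicate numbers in the labels.

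Each gene was represented by its brightest detected probe, and all 10 genes had 1 that passed detection on every array of at least 1 group. Signals below are the deposited intensities, which the authors had background-subtracted and normalized, in arbitrary units that do not rank one probe against another. Fold changes are differences of means on the log2 scale after a further background step, given with standard errors, and a change was called at a Benjamini-Hochberg adjusted p under 0.05 from limma over 10134 genes. As whole arrays, severe mouse 11 was least like its own group (mean Pearson's r 0.971 over the detected probes, against at least 0.978 for each other mouse). Skeletal muscle markers were bright in all mice, with summed signals of 255100 to 268000 in moderate, 237300 to 259900 in severe and 263400 to 278500 in control muscle.

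The promoters of 5 members are shown, since these genes were higher in moderate cachexia and contain a match to a sequence bound by AP-1 or ATF proteins. They are the 120 bases before a transcription start, 5′ to 3′ on the strand of the gene, from RefSeq promoters of build GRCm38.p6, and capitals mark the match.
Fos, chr12:85473770-85473889, + strand: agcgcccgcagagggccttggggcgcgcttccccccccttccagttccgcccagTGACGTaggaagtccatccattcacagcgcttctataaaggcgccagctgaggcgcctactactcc
Jun, chr4:95052223-95052342, - strand: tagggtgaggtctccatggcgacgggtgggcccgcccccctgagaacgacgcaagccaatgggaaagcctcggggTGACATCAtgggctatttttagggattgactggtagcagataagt
Atf3, chr1:191183334-191183453, - strand: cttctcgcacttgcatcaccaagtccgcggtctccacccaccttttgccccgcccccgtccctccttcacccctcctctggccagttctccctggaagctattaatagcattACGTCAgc
Maff, chr15:79347400-79347519, + strand: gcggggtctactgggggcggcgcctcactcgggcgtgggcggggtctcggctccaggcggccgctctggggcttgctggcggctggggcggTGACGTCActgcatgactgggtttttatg
Mafg, chr11:120633548-120633667, - strand: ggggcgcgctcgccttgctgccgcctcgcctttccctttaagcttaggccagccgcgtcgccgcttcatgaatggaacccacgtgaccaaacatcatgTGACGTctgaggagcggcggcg
In the Maff promoter the capitals spell TGACGTCA, the cAMP response element, and in Fos and Mafg they spell TGACGT, a part of it, which the Atf3 promoter holds on the opposite strand. In the Jun promoter they spell TGACATCA, a variant of the AP-1 site that lies 45 bases before the start. Motifs were searched on both strands of 300-base windows, 250 bases before and 50 after the start, of 12 promoters that cover the 10 members (Maff has 3). The cAMP response element was in 1 of the 12, against 1.79% of all 32851 promoters, and TGACGT, which lies within it, was in 4 (Fos, Mafg, Atf3 and Maff), against 7.51%. TGACATCA was in 2 (Jun and another Maff start), against 3.62%, and TGACTCA, the AP-1 site itself, was in 0, against 5.2%. A palindrome bound by STAT factors, TTCNNNGAA, was in 1 (Maff), against 8.3%. These matches describe letters in a window, and binding was not measured.

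Most AP-1 and small Maf transcripts were higher in cachectic muscle of both stages than in control muscle. In moderate cachexia 9 of the 10 passed the test and all 9 were higher, where 18.9% of all genes tested were higher. In severe cachexia 7 of the 10 were higher, against 15.6% of all genes tested, and 0 of the 10 were lower in either stage, against 22.2% and 17.8%. The median log2 fold change of the members was 1.75 in moderate and 1.06 in severe cachexia, while that of all genes was -0.03 and 0.00482. Jund did not pass in either stage, and Fosb and Mafg passed in moderate but not in severe cachexia. Rises of at least 2-fold were found for 7 members in moderate cachexia (4.72% of all genes) and 5 in severe cachexia (2.98%). For 8 members every moderate mouse, and for 7 every severe mouse, was above every control, which 22.8% and 15.0% of all genes tested showed. Fosb, Maff and Mafk passed the detection filter only through groups in which they were higher. Among the 7 members detected on all 11 arrays, 6 were higher in moderate and 5 in severe cachexia. Of the 8887 genes under that filter, 1751 were higher and 1925 lower in moderate cachexia, and 1462 higher and 1565 lower in severe cachexia. The stages share their 4 control mice.

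**Figure D1:**
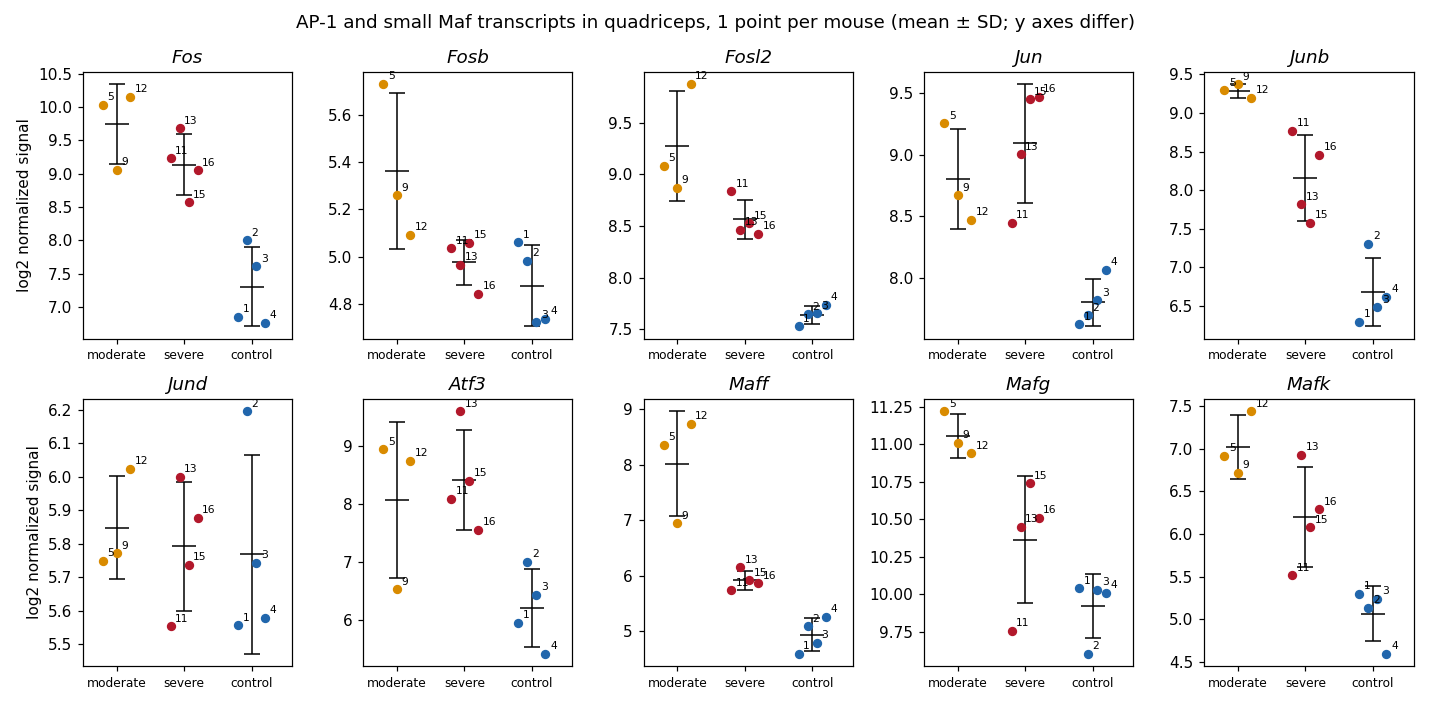
Normalized log2 signal of the 10 transcripts, 1 point per mouse labelled with its number, in moderate (n = 3), severe (n = 4) and control (n = 4) quadriceps; bars are the mean ± SD, and each panel has its own y axis. Moderate mice lie above the control mice without overlap for 8 genes, Jund and Atf3 being the exceptions.

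Fos, the founding AP-1 subunit and a classical immediate early gene, rose in both stages. Its signal was 1030, 516 and 1120 in moderate mice 5, 9 and 12, and 585, 805, 364 and 516 in severe mice 11, 13, 15 and 16, against 99.6, 240, 179 and 93.2 in control mice 1 to 4. Neither stage overlapped with the controls, and moderate mouse 9 lay within the range of the severe mice. Fos was 5.42-fold higher in moderate (log2 fold change 2.44 ± 0.34 SE, limma adjusted p = 0.000277) and 3.54-fold higher in severe cachexia (1.83 ± 0.32, adjusted p = 0.0013). Severe against moderate muscle gave a log2 difference of -0.61 (95% interval -1.35 to 0.13), which did not pass (limma adjusted p = 0.302).

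Fosl2, which encodes the Fos family protein FRA2, a subunit that lacks the strong activation domain of FOS, rose in both stages. Signals were 527, 451 and 923 in moderate mice 5, 9 and 12, and 441, 337, 353 and 327 in severe mice 11, 13, 15 and 16, against 168, 184, 185 and 198 in control mice 1 to 4. The 3 groups did not overlap, with moderate mice highest and the controls within a narrow range. The log2 fold change was 1.64 ± 0.20 SE in moderate (limma adjusted p = 0.000114) and 0.92 ± 0.19 in severe cachexia (adjusted p = 0.00318). The difference between severe and moderate muscle was -0.71 (95% interval -1.15 to -0.28) and lay at the threshold (limma adjusted p = 0.0506). It passed without moderate mouse 9 (-0.92, adjusted p = 0.0199) or severe mouse 11 (-0.80, adjusted p = 0.0359). With each mouse left out in turn the difference ran from -0.92 to -0.41, at limma adjusted p-values of 0.0199 to 0.152. A further 2 probes of Fosl2 were not detected on any array and were not tested.

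Fosb, an immediate early Fos family member whose spliced form delta-FosB is known for its long life in brain, was faint in quadriceps. Its signal was 37.2, 22.4 and 18.2 in moderate mice 5, 9 and 12, and 16.9, 15.4, 17.4 and 12.7 in severe mice 11, 13, 15 and 16, against 17.5, 15.7, 10.3 and 10.5 in control mice 1 to 4. It was detected in 3 of 3 moderate, 3 of 4 severe and 2 of 4 control mice, so it passed the detection filter through the moderate group alone, in which it was highest. All moderate mice lay above the highest control, mouse 12 by little and mouse 5 by most. Fosb was 1.40-fold higher in moderate cachexia (log2 fold change 0.49 ± 0.16 SE, limma adjusted p = 0.0261) and did not pass in severe cachexia (0.10, 95% interval -0.22 to 0.42, adjusted p = 0.627). The call in moderate cachexia was lost without moderate mouse 5 (0.30, limma adjusted p = 0.146), control mouse 3 (adjusted p = 0.0667) or control mouse 4 (adjusted p = 0.0632).

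Jun, which encodes the main activating partner of FOS, rose in both stages. Its signal was 595, 392 and 340 in moderate mice 5, 9 and 12, and 333, 498, 683 and 693 in severe mice 11, 13, 15 and 16, against 182, 192, 210 and 253 in control mice 1 to 4. Every cachectic mouse was above the highest control, and severe mouse 11 had the lowest of the 7 values. Jun had a log2 fold change of 0.996 ± 0.25 SE in moderate cachexia (limma adjusted p = 0.00668) and was 2.44-fold higher in severe cachexia (1.29 ± 0.23, adjusted p = 0.0014). Severe against moderate muscle gave 0.29 (95% interval -0.24 to 0.82, limma adjusted p = 0.504). Jun and Atf3 were the only 2 of the 10 members whose severe mean was above the moderate mean, and neither difference passed.

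Junb, which encodes a Jun family protein that is a weaker activator than JUN and is known to help maintain adult muscle mass in mice, rose in both stages and differed between them. Its signal was 611, 647 and 572 in moderate mice 5, 9 and 12, and 420, 210, 175 and 336 in severe mice 11, 13, 15 and 16, against 62.5, 142, 73.5 and 82.4 in control mice 1 to 4. The moderate mice were close together, every severe mouse lay between the moderate and the control mice, and severe mouse 11 was the highest of the severe mice. Junb was 6.12-fold higher in moderate (log2 fold change 2.61 ± 0.28 SE, limma adjusted p = 3.86e-05) and 2.79-fold higher in severe cachexia (1.48 ± 0.26, adjusted p = 0.00131). Severe muscle was lower than moderate muscle by a log2 difference of -1.13 ± 0.28 (limma adjusted p = 0.0302, n = 4 and 3). That call was lost when moderate mouse 5, 9 or 12 was left out (adjusted p = 0.104, 0.0647 and 0.0671) and without severe mouse 13 or 15 (adjusted p = 0.0618 and 0.0582), with differences of -1.18 to -0.94. Another Junb probe was not detected on any array.

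Jund, which encodes the Jun family member that is expressed steadily in most tissues and can restrain cell growth, did not pass in either stage. Its signal was 37.9, 38.7 and 49.2 in moderate mice 5, 9 and 12, and 31.1, 48.1, 37.5 and 42.9 in severe mice 11, 13, 15 and 16, against 31.2, 57.4, 37.7 and 31.9 in control mice 1 to 4. All groups overlapped, and control mouse 2 had the highest value. The log2 fold change was 0.08 in moderate (95% interval -0.29 to 0.45, limma adjusted p = 0.741) and 0.02 in severe cachexia (95% interval -0.32 to 0.37, adjusted p = 0.925). Severe against moderate muscle gave -0.06 (95% interval -0.43 to 0.32, limma adjusted p = 0.886).

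Atf3, a stress-induced ATF family protein that can repress transcription and dimerizes with Jun proteins, was higher in both stages but varied most between mice. Its signal was 473, 75.9 and 410 in moderate mice 5, 9 and 12, and 254, 755, 319 and 172 in severe mice 11, 13, 15 and 16, against 45.7, 112, 70.2 and 26.7 in control mice 1 to 4. All severe mice were above the controls, while moderate mouse 9 lay inside the control range. Atf3 was 3.65-fold higher in moderate (log2 fold change 1.87 ± 0.57 SE, limma adjusted p = 0.02) and 4.62-fold higher in severe cachexia (2.21 ± 0.53, adjusted p = 0.00738). Without moderate mouse 9 the log2 fold change in moderate cachexia was 2.64 (limma adjusted p = 0.00134). The call there was lost without moderate mouse 5 (1.43, adjusted p = 0.11), moderate mouse 12 (1.53, adjusted p = 0.0902) or control mouse 4 (1.61, adjusted p = 0.0558). Severe against moderate muscle gave 0.34 (95% interval -0.90 to 1.57, limma adjusted p = 0.772).

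**Figure D2:**
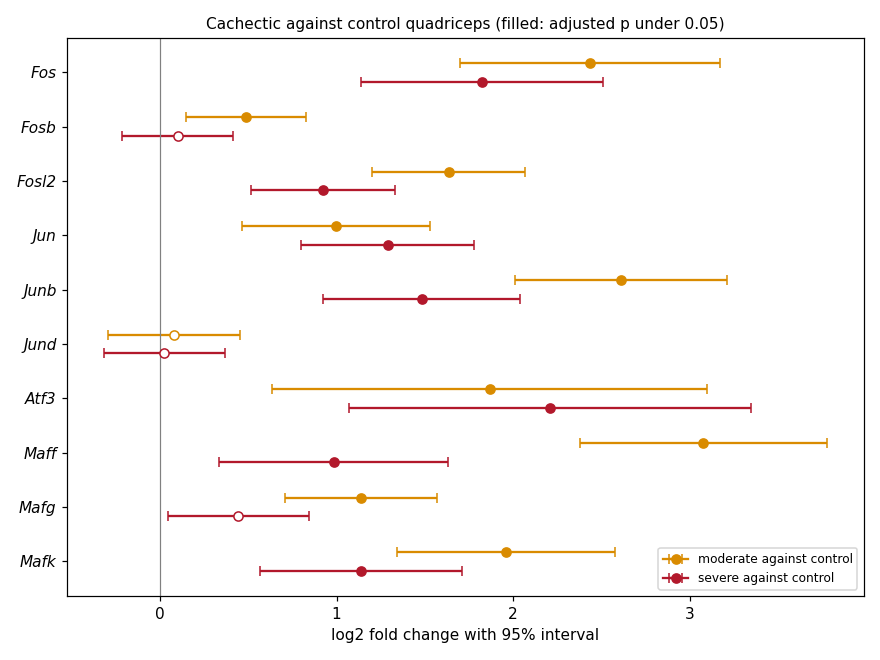
Log2 fold change with its 95% interval for each transcript in moderate and in severe cachexia, both against the same 4 control mice, on the x axis; filled points passed an adjusted p of 0.05 from limma. Maff has the highest point in moderate cachexia (3.08; with an offset of 50, Junb has at 2.27) and Atf3 in severe cachexia (2.21), and the intervals of Jund include 0 in both.

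Maff, a small Maf, rose in both stages and was lower in severe than in moderate muscle. Maff is inducible by cytokines and stress in several cell types. Its signal was 313, 107 and 411 in moderate mice 5, 9 and 12, and 37.7, 55.6, 44.8 and 42.4 in severe mice 11, 13, 15 and 16, against 7.71, 18.3, 11.8 and 22.5 in control mice 1 to 4. The 3 groups did not overlap, and the gene was detected in all cachectic mice but in 2 of 4 control mice. Maff was 8.43-fold higher in moderate cachexia (log2 fold change 3.08 ± 0.33 SE, limma adjusted p = 3.86e-05). In severe cachexia it was 1.98-fold higher (0.98 ± 0.30, limma adjusted p = 0.024), and severe against moderate muscle gave -2.09 ± 0.33 (adjusted p = 0.00398).

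The size of the Maff change depended on how the background was handled, and its control signals were near background. In moderate cachexia its log2 fold change was 4.11 without the further background step and 2.20 with a larger offset of 50, and in severe cachexia it was 1.68 and 0.55. With that offset Maff did not lead the members in moderate cachexia, where Junb had 2.27 and Fos 2.20. With the offset of 50 the severe call was lost (limma adjusted p = 0.101), as it was without control mouse 1 (adjusted p = 0.0703), control mouse 3 (0.0589), severe mouse 13 (0.0624) or severe mouse 16 (0.0504). The difference of Maff between severe and moderate muscle passed whichever mouse was left out, at log2 differences of -2.63 to -1.73. It was lost with the methods' t-test (Benjamini-Hochberg adjusted p = 0.139).

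Mafg, the small Maf that is abundant in most tissues, rose in moderate cachexia. Its signal was 2380, 2050 and 1960 in moderate mice 5, 9 and 12, and 848, 1380, 1690 and 1440 in severe mice 11, 13, 15 and 16, against 1040, 762, 1030 and 1010 in control mice 1 to 4. The moderate mice were above every other mouse, severe mouse 11 lay within the control range, and the other severe mice lay above it. The log2 fold change was 1.14 ± 0.20 SE in moderate (limma adjusted p = 0.00101) and 0.44 ± 0.18 in severe cachexia (95% interval 0.04 to 0.84, adjusted p = 0.0822). Without severe mouse 11 the severe value was 0.65 and passed (limma adjusted p = 0.00264). With each mouse left out in turn it ran from 0.32 to 0.65, at limma adjusted p-values of 0.00264 to 0.215. Severe against moderate muscle gave -0.70 (95% interval -1.13 to -0.27, limma adjusted p = 0.0521), and without severe mouse 15 it was -0.82 and passed (adjusted p = 0.0319). Over all mice left out in turn, that difference ran from -0.82 to -0.495, at limma adjusted p-values of 0.0319 to 0.192.

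Another detected Mafg probe, which measures the same gene and is no independent replicate, gave log2 fold changes of 1.43 in moderate (limma adjusted p = 0.000417) and 0.50 in severe cachexia (adjusted p = 0.0794). For that probe severe against moderate muscle was -0.93 and passed (limma adjusted p = 0.0243), in a fit over all 18837 detected probes. Its signals were 2730, 2280 and 1840 in moderate mice 5, 9 and 12, and 801, 1130, 1610 and 1290 in severe mice 11, 13, 15 and 16, against 968, 613, 882 and 893 in control mice 1 to 4. Both probes placed severe mouse 11 within the controls and the moderate mice above all others.

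Mafk, the small Maf first known as the partner of the erythroid factor NF-E2 p45, rose in both stages. Its signal was 105, 89.2 and 158 in moderate mice 5, 9 and 12, and 29.9, 106, 51.7 and 62.3 in severe mice 11, 13, 15 and 16, against 23.5, 19.2, 21.9 and 7.62 in control mice 1 to 4. All cachectic mice were above the controls, severe mouse 11 by little, and severe mouse 13 reached the moderate range. Mafk was 3.88-fold higher in moderate (log2 fold change 1.96 ± 0.29 SE, limma adjusted p = 0.000346) and 2.20-fold higher in severe cachexia (1.14 ± 0.27, adjusted p = 0.00648). Severe against moderate muscle gave -0.82 (95% interval -1.44 to -0.20, limma adjusted p = 0.1), and without severe mouse 13 it was -1.06 and passed (adjusted p = 0.0291). With each mouse left out in turn that difference ran from -1.06 to -0.59, at limma adjusted p-values of 0.0291 to 0.282. As for Maff, the size depended on the background step: without it, Mafk had 2.78 in moderate and 1.77 in severe cachexia, and with the offset of 50 it had 1.28 and 0.69.

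When the stages were compared directly, 2 members, Junb and Maff, were lower in severe than in moderate muscle and 0 were higher, where 3.81% of all genes tested were lower and 3.17% higher. Of the 10 genes, 8 had a negative difference, and their median was -0.66, beside 0.02 over all genes tested. For 5 members (Fosb, Fosl2, Junb, Maff and Mafg) every severe mouse was below every moderate mouse, which 9.33% of all genes showed. Of these, Fosb was faint and passed the detection filter through the moderate group alone, so its place in this count is not independent of the filter. Fosl2 and Mafg had adjusted p-values just above the threshold. The intervals of Fos, Jun, Jund and Atf3 included 0. The count over all genes moved with single mice: 707 genes differed between the stages, but 195 without moderate mouse 5, 281 without severe mouse 16 and 390 without moderate mouse 12.

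**Figure D3:**
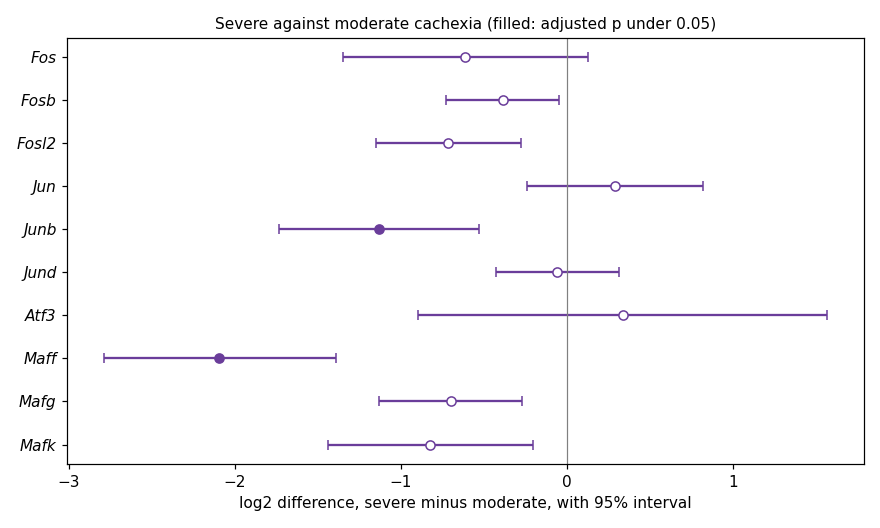
Log2 difference of severe minus moderate muscle for each transcript on the x axis, with its 95% interval (n = 4 and 3 mice); filled points passed an adjusted p of 0.05 from limma. Maff (-2.09) and Junb (-1.13) are the filled points, and Jun and Atf3 lie to the right of 0.

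Seen mouse by mouse, moderate mouse 12 had the highest median of the members, at 2.30 over the mean of the controls (log2). The median was 1.65 in moderate mouse 5 and 1.16 in moderate mouse 9, and 0.72, 1.17, 0.95 and 1.07 in severe mice 11, 13, 15 and 16, against -0.20, 0.13, 0.01 and -0.10 in control mice 1 to 4. Members above the highest control numbered 9, 8 and 9 in moderate mice 5, 9 and 12, and 7 in severe mouse 11 and 8 in each other severe mouse. The leading gene differed between mice. It was Maff in moderate mice 5 and 12, Atf3 in severe mice 13 and 15, and Junb in moderate mouse 9 and severe mice 11 and 16. Severe mouse 11 had the highest Junb and Fosl2 of the severe mice and the lowest Jun, Jund, Maff, Mafg and Mafk.

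**Figure D4:**
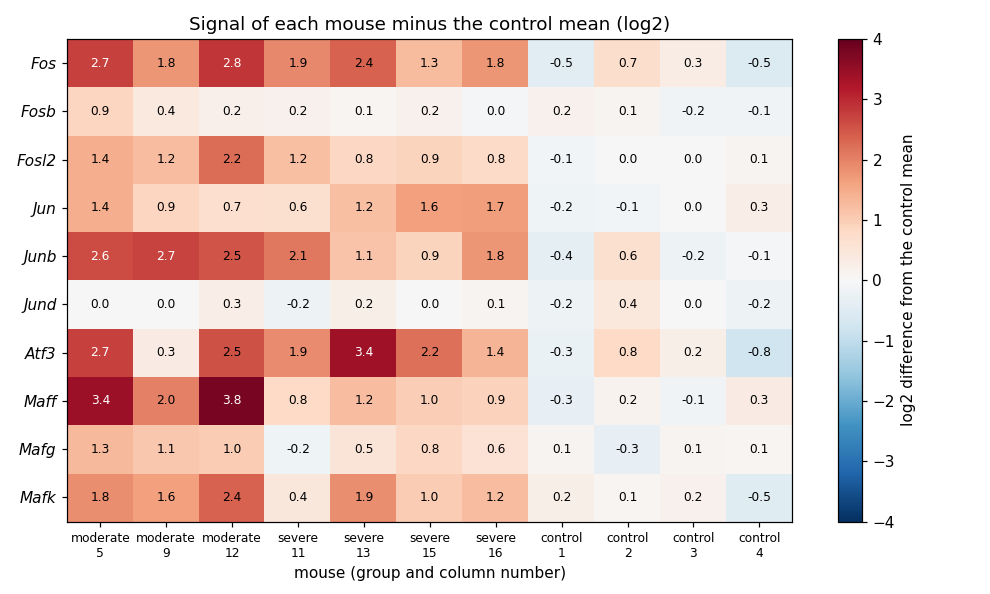
Signal of each transcript (rows) in each mouse (columns) minus the mean of the 4 control mice, on the log2 scale, with red above and blue below the control mean. Maff in moderate mouse 12 has the highest value (3.80), and Jund stays near the control mean in all mice.

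Markers of macrophages were also higher against control muscle, with medians of 0.59 in moderate and 0.66 in severe cachexia, and their median difference between severe and moderate muscle was 0.03. Of 14 macrophage markers tested, 7 were higher in moderate and 10 in severe cachexia, among them C1qa, a complement component (log2 fold change 1.09 in moderate, limma adjusted p = 0.00305, and 1.12 in severe, adjusted p = 0.00219), and Cd163, a scavenger receptor (1.60, adjusted p = 0.000422, and 1.43, adjusted p = 0.00068). The summed signal of the markers was 9269 to 11550 in moderate and 8774 to 17140 in severe muscle, against 6099 to 6719 in control muscle, with the highest value in severe mouse 11. Itgam, which encodes CD11b, was not detected on any array. Of 4 neutrophil markers tested, 0 passed in moderate and 2 were higher in severe cachexia, and summed signals were 218.8 to 667.6 in moderate, 494.5 to 1428 in severe and 146.9 to 1135 in control muscle. Cxcr2, Elane and Mmp8 were not detected on any array.

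Other cell types were represented as well. Adipocyte markers were lower for 6 of 10 in moderate and 4 of 10 in severe cachexia, with 1, Plin4, higher in each. Their median log2 fold changes were -1.12 and -0.95. Summed signals were 29270 to 31490 in moderate, 20990 to 31910 in severe and 25800 to 32330 in control muscle. Such a sum weighs bright markers most, and Plin4 was bright, with mean log2 signals of 13.66 in moderate, 13.12 in severe and 12.56 in control muscle. Markers of fibroblasts and tendon were lower for 6 and 7 of 11, also with 1 higher in each stage, and had median log2 fold changes of -1.05 and -0.98. Their summed signals were 15310 to 20160 in moderate, 12910 to 19300 in severe and 17700 to 18370 in control muscle. Endothelial markers were higher for 3 of 11 in moderate and 1 of 11 in severe cachexia. Smooth muscle and pericyte markers were lower for 4 of 9 in moderate and 2 of 9 in severe cachexia, where 1, Des, was higher. Des was bright in these samples, with mean log2 signals of 14.04 in severe and 13.6 in control muscle. Of 4 satellite cell markers tested, 1 was higher and 1 lower in moderate and 3 were higher in severe cachexia, and Pax7, which defines these muscle stem cells, was not detected on any array. Red blood cell markers had summed signals of 13130 to 27100 in moderate, 22310 to 55820 in severe and 17900 to 26490 in control muscle, the highest in severe mouse 11. Of 10 markers of T and B cells 0 passed the detection filter. The part of other cell types in the AP-1 and small Maf changes was not tested.

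Transcripts of the CNC and Bach proteins, with which small Mafs dimerize, were mostly higher too. Of 4 genes tested, a list that also holds Keap1, 3 were higher in both stages (Bach1, Nfe2l2 and Keap1) and 0 were lower. Their medians, Keap1 included, were 0.85 in moderate and 0.61 in severe cachexia. Bach1, a heme-regulated repressor, had a log2 fold change of 1.53 ± 0.18 SE in moderate (limma adjusted p = 6.69e-05) and 0.70 ± 0.16 in severe cachexia (adjusted p = 0.00655), and was lower in severe than in moderate muscle (-0.83 ± 0.18, adjusted p = 0.0158). Nfe2l2, which encodes NRF2, the activator of antioxidant genes, had 1.06 (limma adjusted p = 0.000119) and 0.61 (adjusted p = 0.00285). Keap1, which holds NRF2 for degradation and was listed with its partner, had 0.64 (limma adjusted p = 0.00266) and 0.62 (adjusted p = 0.00297). Nfe2l1, encoding NRF1, did not pass (0.00 and -0.23, limma adjusted p = 0.983 and 0.123).

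Genes with antioxidant response elements, the sites bound by NRF2 with small Mafs, were higher for 7 and lower for 2 of 17 tested in moderate cachexia, and higher for 10 and lower for 1 in severe cachexia. Their medians were 0.14 and 0.34. Gclm, a subunit of the enzyme that limits glutathione synthesis, had log2 fold changes of 1.87 in moderate (limma adjusted p = 0.000693) and 1.52 in severe cachexia (adjusted p = 0.00195). Srxn1, which repairs oxidized peroxiredoxins, had 1.82 (limma adjusted p = 0.00123) and 1.45 (adjusted p = 0.00394), and Ftl1, the ferritin light chain, had 0.82 (adjusted p = 0.00329) and 0.85 (adjusted p = 0.00223). Gsta4, a glutathione transferase, went the other way, at -1.80 (limma adjusted p = 0.00079) and -1.39 (adjusted p = 0.00297).

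Genes with known AP-1 sites were mixed: 5 were higher and 2 lower of 15 tested in moderate cachexia, and 6 higher and 2 lower in severe cachexia, with medians of 0.09 and 0.27. Mmp3, a matrix metalloproteinase, had log2 fold changes of 2.68 in moderate (limma adjusted p = 0.000671) and 3.16 in severe cachexia (adjusted p = 0.000215), and Mt2, a metallothionein, had 2.90 (adjusted p = 0.00127) and 3.48 (adjusted p = 0.000388). Timp1, an inhibitor of metalloproteinases, had 0.83 in moderate, which did not pass (limma adjusted p = 0.0858), and 1.67 in severe cachexia (adjusted p = 0.00306). Ccnd1, cyclin D1, was lower in both stages (-1.59, limma adjusted p = 0.000138, and -1.26, adjusted p = 0.000537).

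A list of other factors of the wider family was mixed. It and the 10 members were chosen by hand with earlier results of these data known, so a contrast between them is no independent result. Of 10 other AP-1, ATF and large Maf factors tested, 2 were higher and 1 lower in moderate cachexia, 1 higher and 2 lower in severe cachexia, with medians of -0.13 and -0.11. Maf, the large Maf factor c-MAF, was lower in both stages (log2 fold change -1.27, limma adjusted p = 0.00705, and -1.65, adjusted p = 0.00141), whereas Atf4, the effector of the integrated stress response, was higher (0.74, adjusted p = 0.00699, and 0.60, adjusted p = 0.017). Atf6, a sensor of stress in the endoplasmic reticulum, had 0.63 in moderate (limma adjusted p = 0.0271) and 0.39 in severe cachexia, which did not pass (adjusted p = 0.132).

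Transcripts of the kinases and factors that act upstream of AP-1 were more often lower than higher. Of 18 tested, 2 were higher and 7 lower in moderate and 2 higher and 5 lower in severe cachexia, with medians of -0.27 and -0.09. Map2k6, which encodes an activator of p38, was lower by log2 fold changes of -2.51 in moderate (limma adjusted p = 3.34e-06) and -2.31 in severe cachexia (adjusted p = 5.85e-06), and Mapk14, which encodes p38 alpha itself, had -0.92 (adjusted p = 0.000987) and -0.44 (adjusted p = 0.0361). Map2k6 was detected in 2 of 3 moderate, 3 of 4 severe and 4 of 4 control mice, so it passed the detection filter through the control group alone. Its mean log2 signals were 4.92 in moderate and 5.12 in severe muscle, near background, against 7.43 in control muscle. The effect of the background step on its fold sizes was not tested. Map2k4, which activates JNK, had -0.52 (limma adjusted p = 0.00836) and -0.84 (adjusted p = 0.000484), and Srf, the serum response factor that acts on Fos and other immediate early promoters, had -0.49 (adjusted p = 0.0239) and -0.76 (adjusted p = 0.00218). These are transcript levels, and kinase activity was not measured. Of 9 dual-specificity phosphatases, which switch MAP kinases off, 1 was higher and 2 lower in moderate and 0 higher and 1 lower in severe cachexia. Dusp1 was higher in moderate cachexia (0.48, limma adjusted p = 0.0405). Dusp6 was lower there (-0.62, adjusted p = 0.022) and had -0.39 in severe cachexia (adjusted p = 0.113), and Dusp10 was lower in both stages (-1.87, adjusted p = 0.000511, and -1.32, adjusted p = 0.00325).

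Early response genes outside AP-1 were mostly higher in moderate and mixed in severe cachexia. Of 16 tested, 9 were higher and 0 lower in moderate cachexia, 5 higher and 2 lower in severe cachexia, and 6 lower in severe than in moderate muscle, with medians of 0.92, 0.16 and -0.51. Zfp36, which encodes the mRNA-destabilizing protein tristetraprolin, had a log2 fold change of 1.80 in moderate (limma adjusted p = 0.000438) and 0.15 in severe cachexia (adjusted p = 0.684), and its severe against moderate difference was -1.66 (adjusted p = 0.00518). Gadd45a, a stress-induced protein, had 1.94 (limma adjusted p = 6.05e-06) and 0.98 (adjusted p = 0.000484), with -0.96 between the stages (adjusted p = 0.00471).

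**Figure D5:**
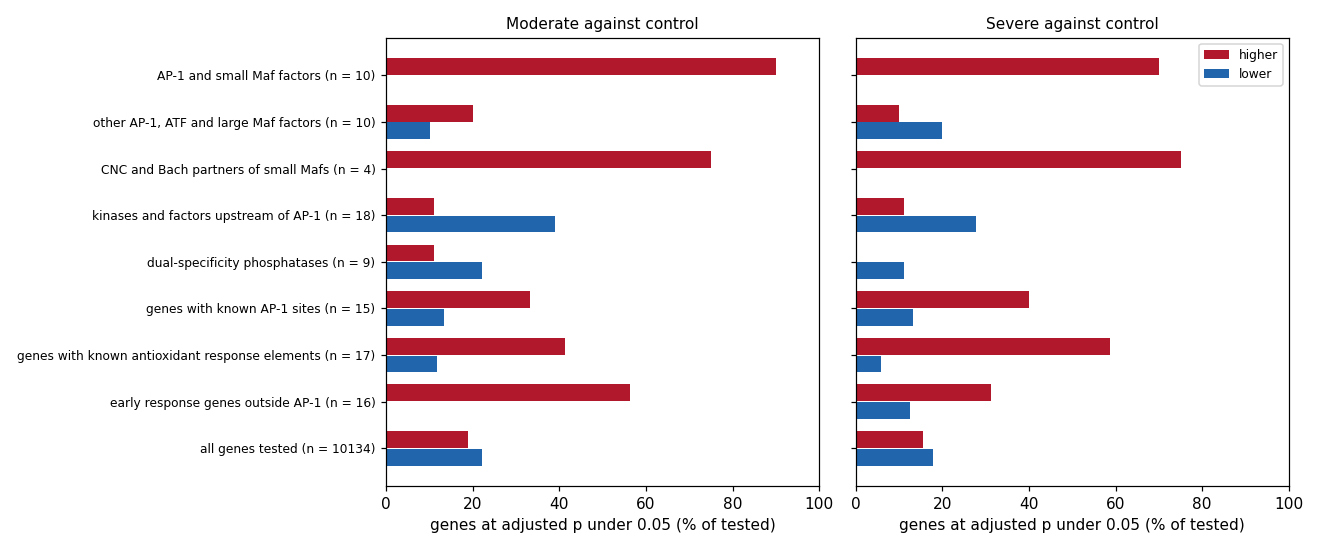
Share of the genes tested in each list (rows, with the number tested) that were higher or lower at an adjusted p under 0.05 from limma, in moderate cachexia on the left and severe cachexia on the right, both against control muscle. The 10 members stand at 90% and 70% higher, beside 18.9% and 15.6% of all genes tested.

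Over the 11 arrays, the genes whose log2 signals were most like those of a member were found by Pearson's r among all genes tested outside the 10 members, as a description in which group differences take part. Maff was nearest to Chic2 (r = 0.98), to the unnamed transcript 6230400D17Rik (r = 0.98) and to Sik1, a salt-inducible kinase (r = 0.976). Mafg had Bach1 among its nearest 3 genes (r = 0.968), and Mafk was nearest to Bnip3, a protein of mitophagy (r = 0.982). Fosl2 was nearest to Hs3st3b1 (r = 0.973), followed by Cebpd, an acute phase transcription factor (r = 0.972). Fos was nearest to Vegfd, a lymphatic growth factor (r = 0.966), followed by Foxo1, a transcription factor that drives muscle atrophy genes (r = 0.957). Jun was nearest to Ints11, the catalytic subunit of the Integrator complex (r = 0.981), Junb to Lox, an enzyme that crosslinks collagen (r = 0.956), and Atf3 to Tbc1d12 (r = 0.94).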

How the data were processed

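Quadriceps RNA of 11 mice was hybridised to Illumina MouseWG-6 v2.0 arrays. The authors subtracted background and normalized the arrays with BeadStudio and GeneSpring GX before they deposited the intensity values, of which 28.5% were below 0. Each probe and array also has a deposited detection p-value for signal over background. The deposited ratio values follow from the same intensities, with a floor of 1 and the control median as divisor, and were used in an alternative. Sources used here give neither the BeadStudio settings nor the chip of each array.

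Intensities were put through neqc of limma 3.58.1 in R 4.3.3 (normexp from the detection p-values with an offset of 16, quantile normalization, log2). A probe was kept if its detection p was under 0.01 on all arrays of 1 group or more (18837 of 45281). Symbols came from the platform annotation, leaving out probes with several (18) or none (10378), and the kept probe with the highest mean log2 signal stood for its gene (10134 genes). A limma model with 3 group means (lmFit, eBayes with an intensity trend) used all arrays, with Benjamini-Hochberg adjustment over these genes. It was tested on simulated data. The small number of arrays limits precision. Figures were drawn with matplotlib 3.10.9.

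The members and the gene lists, written by hand, were chosen with earlier results of these data known. All members are named, as are up to 4 genes of each other list by smallest adjusted p, and the 3 genes most like each called member, of which a selection is given. Alternatives were no background correction, the deposited ratios, median scaling, a normexp offset of 50, other probe rules and detection filters, only the arrays compared, the t-test of the methods, no intensity trend and each mouse left out in turn.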

Additional observations from a re-analysis of the deposited data

Results flagged for a closer look

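Control mouse 2 lay far below the other control mice for Mafg, with a gap to the nearest of them of 0.931 of the whole range of the group on the log2 scale. Its deposited Mafg signal was 762, against 1010 to 1040 in control mice 1, 3 and 4. Chance flags about 1 in 20 groups of 4, and 20 such groups were examined. The changes of Junb and Maff differed between the stages by the limma test of the difference itself, with severe minus moderate differences of -1.13 and -2.09. A Maff probe that was left out of the test, ILMN_2629354, was detected on 1 moderate array, in mouse 12, at a signal of 25.2. Its signals were 9.19 and -3.98 in moderate mice 5 and 9, and -3.8 to -1.19 in severe mice, against -9.05 to -4.26 in control mice.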

How the results depend on the processing

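Over the settings other than leaving out a mouse, 388 of 411 fold changes of members kept their direction and their side of the threshold, 19 no longer passed, 4 newly passed and 0 reversed. Of 84 counts of calls under these settings, 14 moved by over 1.5 times. Genes that differed between severe and moderate muscle numbered 707, and 249 with the deposited ratios and a replicate block, 409 with no filter, 208 with only the arrays compared, 7 with the methods' t-test after Benjamini-Hochberg adjustment and 146 with that test at a fold of 2 and an unadjusted p of 0.05. At those last thresholds 954 genes, 6 of them members, were called in moderate and 660, 5 of them members, in severe cachexia against control muscle. Atf3 was not called there in moderate cachexia, at a log2 fold change of 1.87. Members called between severe and moderate muscle numbered 2, and 1 with the deposited ratios, 1 with no filter, 1 with only the arrays compared, 0 with the ratios and a replicate block, 0 with the adjusted t-test, and 4 with the mean of a gene's probes or with every probe as its own feature. Junb was lost there with the ratios (adjusted p = 0.0977 from limma), with no filter (0.0535) and with only the arrays compared (0.0664). Maff in severe cachexia was lost with no filter (adjusted p = 0.0501 from limma), and Fosb (0.106) and Atf3 (0.117) in moderate and Mafk (0.056) in severe cachexia, and Junb (0.189) and Maff (0.139) between severe and moderate muscle, after adjustment of the methods' t-test. With each mouse left out in turn, 2582 to 4577 genes were called in moderate, 2284 to 4094 in severe and 195 to 715 between severe and moderate muscle, and 7 to 9, 6 to 8 and 1 to 3 members. Without a mouse, signs turned for values near 0: Jund ran from -0.0088 to 0.22 in moderate, from -0.0472 to 0.17 in severe cachexia and from -0.13 to 0.0322 between severe and moderate muscle, and Atf3 from -0.43 to 0.78 between them. Where no cause is shown by the setting itself, the cause was not tested. Fosb, Maff and Mafk could not be tested under detection on all 11 arrays. Replicate numbers of the labels did not pair the samples (correlations of deviations -0.348 to 0.126). With them as a block on the deposited ratios, the calls of Atf3 in moderate (adjusted p = 0.0797 from limma) and Maff in severe cachexia (0.0522), and of Junb (0.177) and Maff (0.0659) between severe and moderate muscle, were lost. Faint signals limit Fosb, Maff and Mafk in control muscle, where fold sizes depend on the background step.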
